A study of Mus musculus with 6 samples.

Results

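The 36 genes described here encode the enzymes of mitochondrial and peroxisomal fatty acid oxidation, the peroxins that build peroxisomes, the transcriptional regulators Ppara and Ppargc1a, and the ketone body enzyme Bdh1. They are listed by function, and the rule that lists them uses no measured value, but they were chosen with earlier results of these data known. They are 36 of the 24927 genes that the counts could be summed to. Kidneys of male mice of the inbred strain C57BL/6J were the source of the collecting duct cells whose RNA was sequenced. The mice had eaten a low-NaCl diet (0.01 to 0.02% sodium) or a high-NaCl diet (2.4% sodium) for 5 days, with 3 libraries per diet and no untreated group. Low sodium intake raises the hormone aldosterone and high intake lowers it, so comparing the diets asks which transcripts differ between those hormonal states. The labels give neither the age of the mice, nor how cells were isolated, nor whether each library is a separate animal. The p-values therefore reflect library-to-library spread, part of which may be technical.

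Fatty acids are burned by beta-oxidation, a cycle that shortens an acyl chain bound to coenzyme A. Long chains enter mitochondria through the carnitine shuttle and pass through dehydrogenation, hydration, a further dehydrogenation and thiolysis, and the electrons reach the respiratory chain partly through the electron transfer flavoprotein. Peroxisomes run a related cycle on very long and branched chains, and peroxins import its enzymes. In the kidney these pathways are best known from the proximal tubule, which relies on fatty acids for energy and uses the receptor PPARA, encoded by Ppara, and its coactivator PGC1A, encoded by Ppargc1a, to drive their genes. The collecting duct, where the tubule ends, holds principal cells, which take up sodium and water, and intercalated cells, which handle acid and base.

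Each library held between 40101899 and 46861531 counted reads. Expression is given in CPM (counts scaled to library size with TMM factors), as means ± SD with n = 3 per diet, and library values are listed as replicates 1, 2 and 3. A positive log2 fold change means a higher level on the low-NaCl diet, and is given ± SE, with 95% intervals in brackets, and adjusted p-values are from edgeR. The share of counts on mitochondrial genome genes was 20.45% to 21.77% in the low-NaCl libraries and 21.86% to 29.9% in the high-NaCl libraries. Replicate 1 of each diet ran in lane 1 of the sequencer, and the other replicates of the 2 diets ran in separate lanes. The labelled cell type was checked against Aqp2, the water channel of principal cells, which reached 2136 to 8312 CPM in the 6 libraries. Hnf4a, Slc22a8, Slc13a3 and Acsm2, which mark the proximal tubule, had no counts, although at most 32.8% of the exonic bases of any of them could be counted.

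How well a member was measured depended on its transcripts. The deposited counts are per transcript, and a read in an exon shared by several annotated transcripts was not counted, so only bases that belong to 1 transcript could be counted. All or nearly all bases (at least 90%) were countable in 17 of the 36 members, and fewer than 50% in 12. Ppargc1a had 31 countable of 6495 exonic bases, Pex5 had 0 of 3185, Hadhb had 76 of 2025 and Acsl4 had 127 of 5407. These members and Ppara and Pex3, 6 in all, had too few counts to be tested, and the remaining 30 were tested. A low value of a gene with few countable bases says nothing of its expression. Pex3 had 2560 countable of 4863 exonic bases, 2458 of them in 1 transcript, so its low counts bear mainly on that transcript. Among tested members, the countable share was lowest for Acsl1 (5.54%), Crat (5.77%), Pex19 (8.82%), Acox3 (12.0%), Pex11a (13.2%), Bdh1 (13.7%) and Echs1 (15.0%), and their CPM are parts of their true levels.

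**Figure D1:**
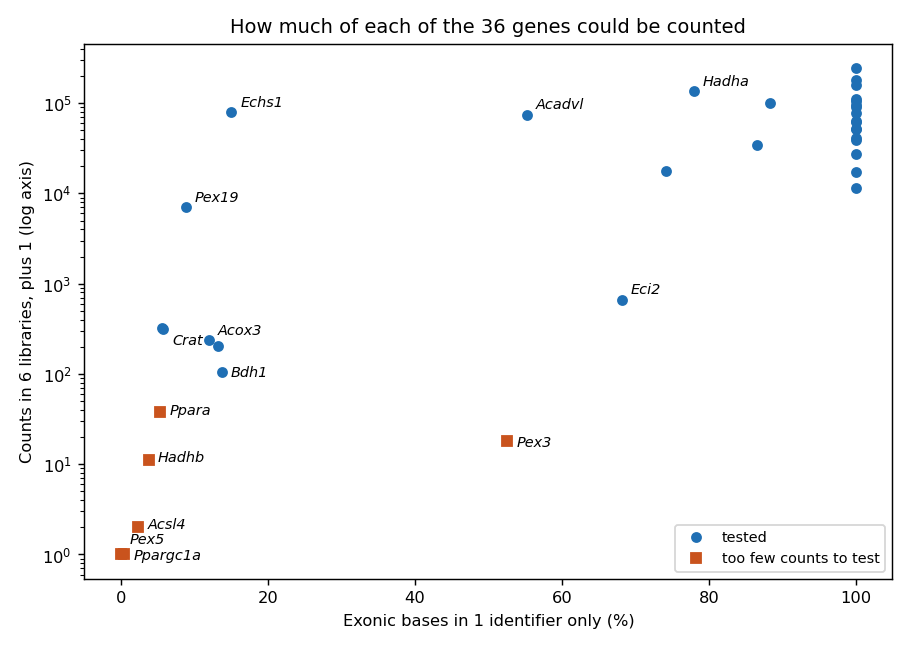
Each point is 1 of the 36 genes, placed by the share of its exonic bases that lie in 1 annotated transcript (%) and by its counts summed over 6 libraries, plus 1, on a log axis. The 6 genes with too few counts to test (squares) lie at the bottom, and 5 of them have under 6% countable bases, while Pex3 has 52.6%.

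None of the 30 tested members passed the test in either direction. Across all 10564 tested genes, edgeR called 182 higher (1.72%) and 184 lower (1.74%) on the low-NaCl diet at an adjusted p under 0.05. At an unadjusted p under 0.05, edgeR found 0 of the 30 members, against 9.17% of all tested genes higher and 9.13% lower, and DESeq2 and limma-voom also found 0 members at that level and called 0. The members' log2 fold changes were positive for 15 and negative for 15, with a median of -0.02, against -0.00 over all tested genes. Their median absolute log2 fold change was 0.13, against 0.26. They ran from -0.95 for Bdh1 to 0.62 for Acox3, both with few counts. A missed threshold does not show that a gene is unaltered, so the intervals matter: 27 of the 30 members (90%) had a 95% interval that stayed within a 2-fold difference either way, against 61.1% of all tested genes. For 18 members (60.0%) it stayed within 1.5-fold, against 28.4%. Intervals also depend on counts, and the members were more highly expressed: 24 of the 30 tested had a mean of at least 20 CPM. Over all genes, 3827 reached that mean, beside 10564 tested. The part of expression level in these contrasts, and in that of the absolute fold changes, was not tested. The 3 low-NaCl libraries all lay above the 3 high-NaCl libraries for 4 members (13.3%), against 12.3% of all tested genes, and all lay below for 1 member (3.33%), against 11.6%.

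**Figure D2:**
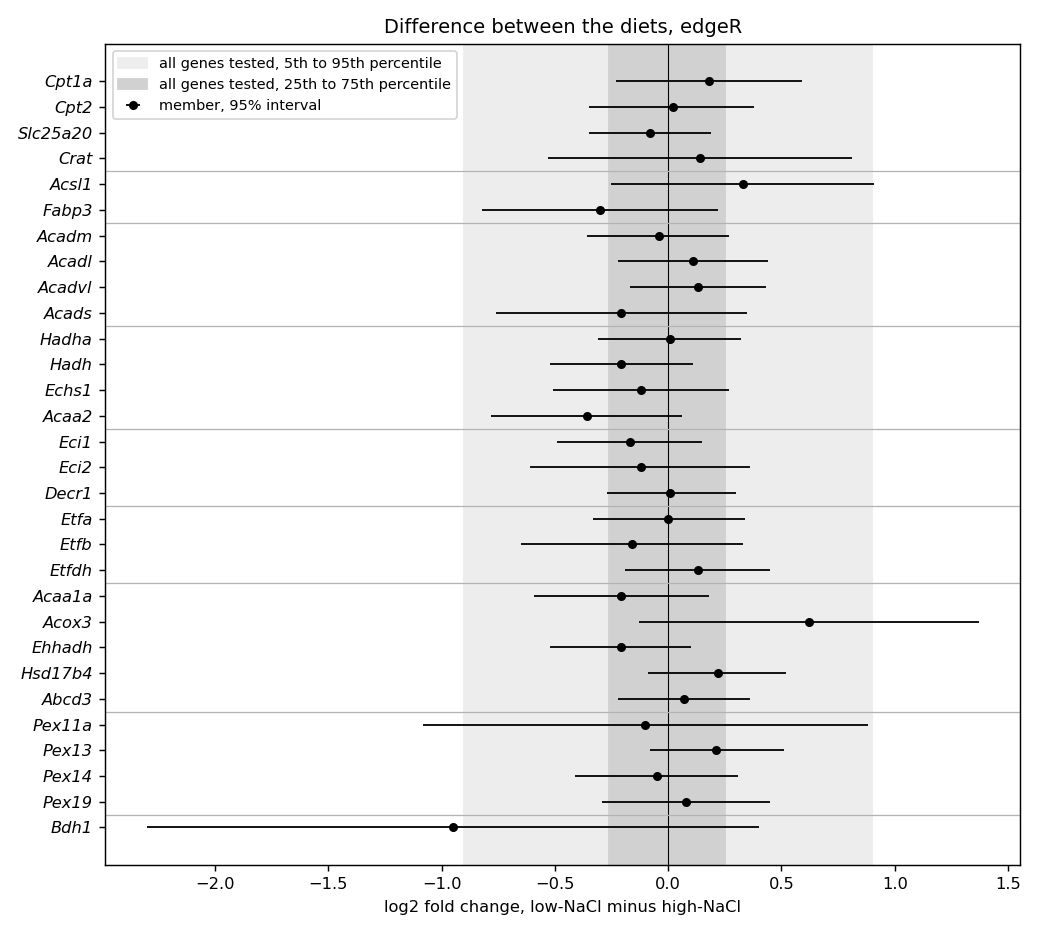
Points are log2 fold changes (low-NaCl minus high-NaCl) of the 30 tested genes from edgeR, bars are 95% intervals, and horizontal lines separate the roles. Every interval includes 0, and the shaded bands show the middle 50% (-0.26 to 0.25) and 90% (-0.90 to 0.90) of all 10564 tested genes.

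**Figure D3:**
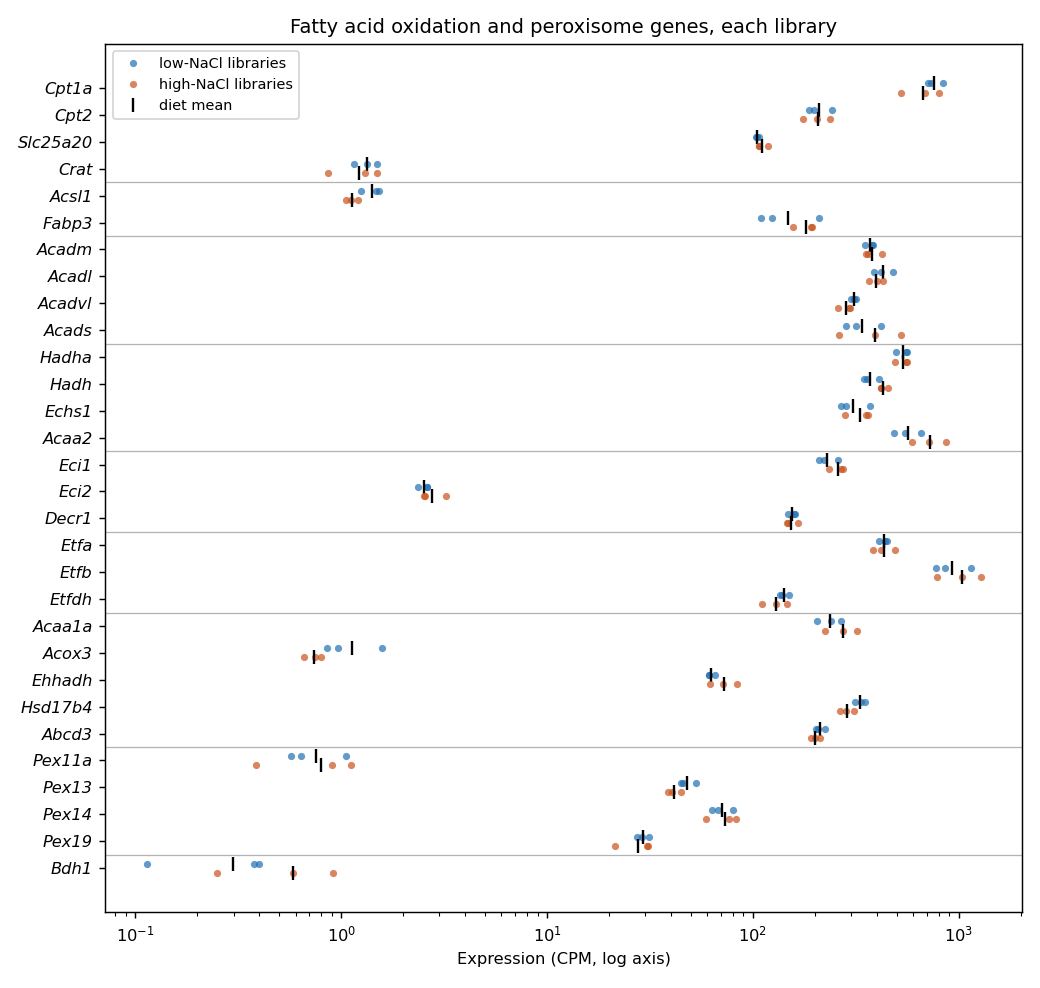
Expression in CPM, on a log axis, of the 30 tested genes in each of 3 low-NaCl and 3 high-NaCl libraries, with black marks at the diet means. The diets overlap in all but 5 genes, and genes with few countable bases, such as Crat, Acsl1 and Bdh1, lie at the left.

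The carnitine shuttle carries long-chain fatty acids into mitochondria. Cpt1a (chromosome 19, 3322334 to 3385733, plus strand, all exonic bases countable) encodes the liver-type carnitine palmitoyltransferase of the outer membrane, the rate-controlling entry step. It measured 706, 835 and 736 CPM on the low-NaCl diet and 522, 798 and 684 CPM on the high-NaCl diet. The high-NaCl replicate 1 was the lowest library, and the diets overlapped. Its means were 759 ± 67.5 and 668 ± 139 CPM, with a log2 fold change of 0.18 ± 0.18 [-0.23 to 0.59] and an adjusted p of 0.649. Slc25a20, the carnitine-acylcarnitine carrier of the inner membrane, measured 107, 103 and 105 CPM against 119, 107 and 107 CPM. It varied least within a diet of all members above 20 CPM (4.58%), and its interval was [-0.35 to 0.19] (adjusted p = 0.785). Cpt2, the inner-membrane palmitoyltransferase, gave 209 ± 28.8 against 207 ± 30.6 CPM. Crat, the acetyl-group carnitine transferase, gave 1.33 ± 0.165 against 1.22 ± 0.321 CPM from its 257 countable bases.

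Fatty acids are bound and activated before they are oxidised. Fabp3, a cytosolic fatty acid binding protein known from the heart, measured 209, 109 and 124 CPM on the low-NaCl diet and 193, 157 and 192 CPM on the high-NaCl diet. The low-NaCl replicate 1 was the highest of all 6 libraries and the other low-NaCl replicates the lowest. The log2 fold change was -0.30 ± 0.23 [-0.82 to 0.22] (adjusted p = 0.550), and without low-NaCl replicate 1 it was -0.64 (adjusted p = 0.0671). Acsl1, a long-chain acyl-CoA synthetase, measured 1.52, 1.48 and 1.25 CPM against 1.05, 1.20 and 1.12 CPM. Its low-NaCl libraries all lay above the high-NaCl libraries, but the log2 fold change of 0.33 ± 0.26 did not pass (adjusted p = 0.550). Acsl4, another synthetase, had 1 counted read in all.

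The acyl-CoA dehydrogenases open each round of beta-oxidation and differ in the chain lengths they take. Acadm (chromosome 3, 153922357 to 153944632, minus strand), the medium-chain enzyme, measured 382, 378 and 351 CPM on the low-NaCl diet. On the high-NaCl diet it measured 355, 423 and 364 CPM. The diets overlapped, with means of 370 ± 17.2 and 381 ± 37.1 CPM and an interval of [-0.36 to 0.27] (adjusted p = 0.909). Acadvl, the very-long-chain enzyme, measured 301, 310 and 316 CPM against 294, 259 and 295 CPM. Its low-NaCl libraries all lay above the high-NaCl libraries by a small margin, with a log2 fold change of 0.13 ± 0.13 (adjusted p = 0.665) from 55.2% of its bases. Acads, the short-chain enzyme, measured 420, 284 and 317 CPM against 523, 261 and 393 CPM. It varied most within a diet of the members above 20 CPM (27.8%), and replicate 1 was its highest library on either diet (log2 fold change -0.21 ± 0.25, adjusted p = 0.718). Acadl, the long-chain enzyme, gave 430 ± 46.4 against 399 ± 31.6 CPM (adjusted p = 0.750).

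The later steps add water, oxidise again and split off acetyl-CoA. Hadha (chromosome 5, 30118304 to 30155162, minus strand) encodes the alpha subunit of the trifunctional protein, which does this for long chains. It measured 559, 555 and 497 CPM on the low-NaCl diet and 559, 492 and 552 CPM on the high-NaCl diet. The diets lay on top of each other (537 ± 34.5 against 534 ± 36.8 CPM, log2 fold change 0.01 ± 0.14 [-0.31 to 0.32], adjusted p = 0.986). Its partner Hadhb, the beta subunit, lies head to head with it (30155248 to 30184593, plus strand) and had 3, 0 and 3 counts against 2, 1 and 1. These few counts come from 3.75% of its bases and do not tell the subunits' levels apart.

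Acaa2, the thiolase that ends the mitochondrial cycle, had the smallest p of all members. It lies on chromosome 18 (74779197 to 74806208, plus strand) and measured 659, 487 and 547 CPM on the low-NaCl diet and 868, 595 and 714 CPM on the high-NaCl diet. Replicate 1 was the highest library of each diet, and low-NaCl replicate 1 lay above high-NaCl replicate 2, so the diets overlapped. The means were 564 ± 87.3 and 726 ± 137 CPM, with a log2 fold change of -0.36 ± 0.19 [-0.78 to 0.06] and an adjusted p of 0.347. Hadh, the short-chain hydroxyacyl-CoA dehydrogenase, measured 408, 348 and 360 CPM against 451, 419 and 417 CPM. It was the only tested member whose low-NaCl libraries all lay below the high-NaCl libraries, and its log2 fold change of -0.21 ± 0.14 [-0.52 to 0.11] did not pass (adjusted p = 0.483). Echs1, the short-chain hydratase, gave 306 ± 55.6 against 332 ± 45.0 CPM (adjusted p = 0.777) from 15.0% of its bases.

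Unsaturated fatty acids need auxiliary enzymes that move or remove double bonds. Eci1, a mitochondrial enoyl-CoA isomerase, measured 259, 210 and 222 CPM on the low-NaCl diet and 273, 235 and 267 CPM on the high-NaCl diet. Its log2 fold change was -0.17 ± 0.14 [-0.49 to 0.15] (adjusted p = 0.588), and low-NaCl replicate 1 overlapped the other diet. Eci2, a related isomerase, measured 2.36, 2.62 and 2.62 CPM against 2.53, 2.54 and 3.22 CPM (adjusted p = 0.807). Nearly all of its counts (98.1%) came from 184 bases of 1 transcript. Decr1, the mitochondrial dienoyl-CoA reductase, gave 155 ± 6.64 against 154 ± 10.8 CPM, with an interval of [-0.27 to 0.30].

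The electron transfer flavoprotein takes electrons from the acyl-CoA dehydrogenases, and Etfdh hands them on to ubiquinone. Etfdh measured 136, 150 and 138 CPM on the low-NaCl diet and 111, 146 and 130 CPM on the high-NaCl diet. The diets overlapped (log2 fold change 0.13 ± 0.14 [-0.19 to 0.45], adjusted p = 0.682). Etfb, the beta subunit, measured 1145, 777 and 861 CPM against 1280, 786 and 1040 CPM. As in Acads and Acaa2, replicate 1 was the highest library of each diet and replicate 2 the lowest (log2 fold change -0.16 ± 0.22, adjusted p = 0.755). Etfa, the alpha subunit, gave 432 ± 18.5 against 431 ± 55.7 CPM, with the highest high-NaCl library being replicate 2 and the lowest replicate 1 (382, 492 and 420 CPM). The subunits of this protein therefore ordered the high-NaCl libraries in opposite ways.

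Peroxisomal beta-oxidation uses its own oxidases, bifunctional enzymes and thiolase. Acox3, an acyl-CoA oxidase for branched chains, had the largest positive log2 fold change of the members, 0.62 ± 0.34 [-0.13 to 1.37] (adjusted p = 0.374). It measured 0.969, 1.57 and 0.849 CPM on the low-NaCl diet and 0.660, 0.746 and 0.798 CPM on the high-NaCl diet, from 552 countable bases. The low-NaCl libraries all lay above the others, and replicate 2 was the highest. Hsd17b4, the bifunctional enzyme of very long and branched chains, measured 315, 349 and 334 CPM against 264, 311 and 282 CPM. The diets lay apart, and the log2 fold change of 0.22 ± 0.14 [-0.09 to 0.52] did not pass (adjusted p = 0.444).

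Ehhadh (chromosome 16, 21761287 to 21787807, minus strand) encodes the other bifunctional enzyme, a classic PPARA target in liver. It measured 65.8, 61.1 and 61.3 CPM on the low-NaCl diet and 62.1, 83.7 and 71.8 CPM on the high-NaCl diet. High-NaCl replicate 2 was the highest library and replicate 1 lay among the low-NaCl libraries (log2 fold change -0.21 ± 0.14 [-0.52 to 0.10], adjusted p = 0.473). Hsd17b4 and Ehhadh thus had fold changes of opposite sign, and neither passed. Acaa1a, a peroxisomal thiolase, gave 237 ± 32.5 against 274 ± 48.7 CPM (adjusted p = 0.582), and its close copy Acaa1b makes this value uncertain where reads could belong to either gene. Abcd3, the abundant acyl-CoA transporter of the peroxisomal membrane, gave 211 ± 10.6 against 201 ± 10.3 CPM (adjusted p = 0.819).

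Peroxins build the organelle and import its proteins. Pex13, a docking protein of the import pore, measured 44.8, 53.1 and 46.0 CPM on the low-NaCl diet and 38.8, 44.9 and 40.5 CPM on the high-NaCl diet. Low-NaCl replicate 1 and high-NaCl replicate 2 met at the boundary, and the log2 fold change was 0.21 ± 0.13 [-0.08 to 0.51] (adjusted p = 0.436). Pex19, the chaperone that delivers membrane proteins, measured 31.3, 27.4 and 29.0 CPM against 30.9, 21.4 and 30.5 CPM (adjusted p = 0.837). Pex14, the other docking protein, gave 70.5 ± 8.99 against 72.9 ± 12.1 CPM, and Pex11a, linked to peroxisome proliferation, gave 0.752 ± 0.258 against 0.800 ± 0.373 CPM. The interval of Pex11a was wide, [-1.08 to 0.88], on 116 countable bases. Pex3, the membrane anchor for Pex19, had 0, 5 and 6 counts against 0, 4 and 2. Pex5, the import receptor of the matrix enzymes, could not be measured because all its bases lie in several transcripts.

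The regulators could not be compared between the diets. Ppara (chromosome 15, 85734983 to 85802819, plus strand) had 10, 3 and 9 counts on the low-NaCl diet and 0, 12 and 3 on the high-NaCl diet, from 404 of 7528 exonic bases. The libraries of the diets interleaved, and the gene had too few counts to be tested. Ppargc1a (chromosome 5, 51454250 to 51567726, minus strand) had no counts, which allows up to 3 counts or 0.0574 to 0.0825 CPM per library for its 31 countable bases alone and covers counting error only. Bdh1, which interconverts the ketone bodies acetoacetate and beta-hydroxybutyrate, measured 0.398, 0.114 and 0.377 CPM against 0.908, 0.249 and 0.585 CPM. Its replicate 2 was the lowest library of each diet, and the log2 fold change of -0.95 ± 0.60 [-2.30 to 0.40] had the widest interval of the members (adjusted p = 0.451).

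Levels could be compared between genes only per length, and only for the 17 members with at least 90% of their bases countable. On the scale of CPM per kb, as means ± SD of 6 libraries, Etfb was highest at 1204 ± 254, and its lowest library (953) lay above the highest of Acaa2 (579). Acaa2 followed at 430 ± 90.4, then Etfa at 295 ± 25.3, Fabp3 at 256 ± 63.9 and Eci1 at 224 ± 23.5. The dehydrogenases Acadl (219 ± 20.8), Acadm (203 ± 14.3) and Acads (199 ± 53.5) sat close together, each overlapping its neighbour, ahead of Cpt1a at 166 ± 25.5. The peroxisomal enzymes spread widely, from Acaa1a at 145 ± 23.9 and Hsd17b4 at 115 ± 11.8 to Ehhadh at 22.5 ± 2.95. Cpt2 came in at 88.5 ± 11.3, Abcd3 at 60.7 ± 3.19, Slc25a20 at 60.5 ± 3.11 and Decr1 at 52.2 ± 2.73, with Pex13 last at 10.8 ± 1.21. Neighbours in this order overlapped in range, except that Etfb, Cpt2, Slc25a20, Decr1 and Ehhadh each lay wholly above the gene below them.

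For most members the spread within a diet was larger than the difference between the diets. Within a diet, the median coefficient of variation of the 24 members with at least 20 CPM was 9.99%, against 12.9% for all 3827 such genes. The difference between the diet means exceeded the pooled SD in 11 of the 30 members (36.7%), against 46.4% of all tested genes. The highest library was high-NaCl replicate 1 for 10 members (33.3%, against 22.7% of all tested genes), low-NaCl replicate 1 for 7 (23.3% against 13.3%) and low-NaCl replicate 2 for 6 (20% against 15.4%). High-NaCl replicate 1 was also the lowest library for 11 members (36.7% against 26.2%) and low-NaCl replicate 2 for 10 (33.3% against 16.9%). The replicates 3 were highest for 1 member each (3.33%, against 16.2% on low NaCl and 13.1% on high NaCl). Acads, Etfb, Acaa2, Acaa1a, Echs1 and Eci1, named after their values were seen, were high in replicate 1 of each diet and low in low-NaCl replicate 2. Cpt1a, Acadl, Etfa, Etfdh, Hsd17b4 and Pex13, also named after their values were seen, had high-NaCl replicate 1 as their lowest library. Both replicates 1 ran in lane 1, and the part of the lane in these patterns was not tested. Within lane 1, which holds 1 library per diet and allows no test, the median log2 difference was 0.03 over the members and 0.01 over all tested genes.

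**Figure D4:**
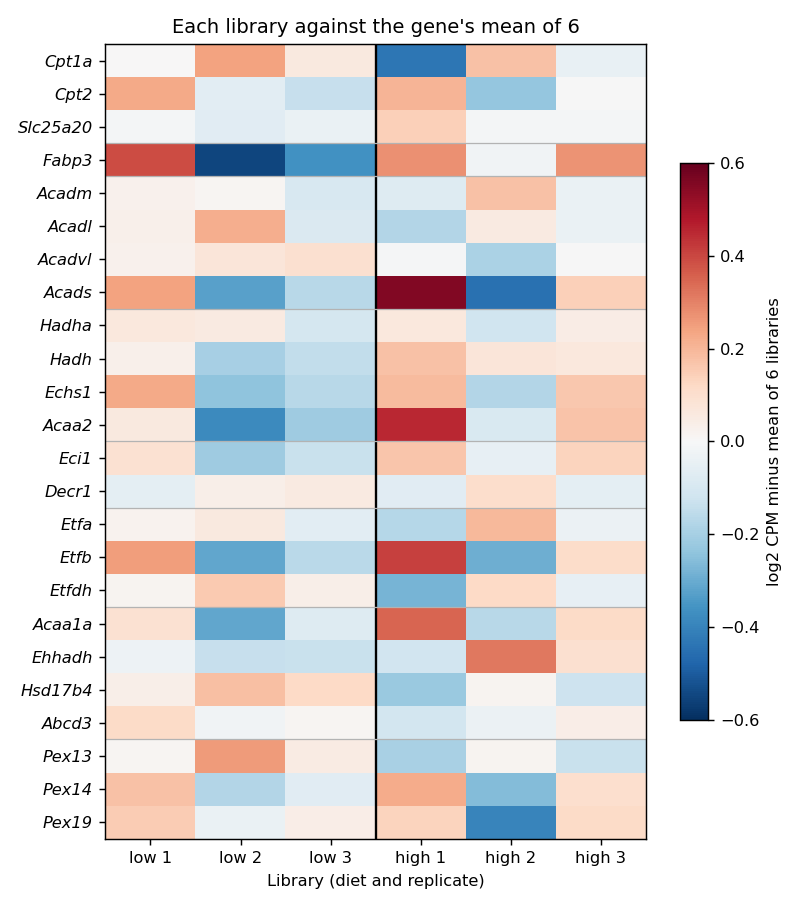
Colours show log2 CPM minus the gene's mean over 6 libraries for the 24 genes with at least 20 CPM, with columns for the 3 low-NaCl (left) and 3 high-NaCl libraries (right of the black line). Acads, Etfb and Acaa2 are red in high-NaCl replicate 1 and blue in low-NaCl replicate 2, while Cpt1a and Pex13 show the reverse.

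A further 142 genes were listed, 19 of them PPARA targets outside these pathways. Of the 142, 96 could be tested, and 2 rose and 2 fell on the low-NaCl diet, close to the shares over all tested genes (1.72% and 1.74%). Slc27a2 is the called gene of the pathways themselves, and G0s2, Vnn1 and Cyp4a12a are on the list of 19, of which 10 were tested. Slc27a2, an acyl-CoA synthetase that activates very long chains and takes up fatty acids, measured 50.1, 41.6 and 34.2 CPM against 16.3, 24.1 and 21.1 CPM. Its mean was 2.05-fold higher with low NaCl, and the diets lay apart (log2 fold change 1.03 ± 0.19, adjusted p = 0.0228). It is also a marker of the proximal tubule. The other 19 markers of that list summed to 38.5, 82.5 and 105 CPM against 61.1, 62.3 and 56.2 CPM, so the library highest in Slc27a2 was the lowest in the rest. G0s2, an inhibitor of the lipase that releases fatty acids from stored fat, measured 2.58, 2.55 and 3.32 CPM against 6.77, 5.91 and 7.40 CPM and was 2.37-fold lower (log2 fold change -1.24 ± 0.20, adjusted p = 0.0155).

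Vnn1, a pantetheinase and liver target of PPARA, measured 3.80, 4.33 and 6.06 CPM on the low-NaCl diet, and its high-NaCl libraries all lay higher, from 8.47 to 13.1 CPM. Its level was 2.23-fold lower with low NaCl (log2 fold change -1.16 ± 0.24, adjusted p = 0.0337). Cyp4a12a, a fatty acid omega-hydroxylase, measured 2.14, 3.76 and 3.54 CPM against 1.54, 0.879 and 1.14 CPM and was 2.66-fold higher (adjusted p = 0.0398), though near-identical copies make its counts uncertain. All 4 calls were lost under several alternatives. Leaving out low-NaCl replicate 2 ended each (adjusted p 0.0778 for Slc27a2, 0.0778 for G0s2, 0.146 for Vnn1 and 0.174 for Cyp4a12a). So did leaving out high-NaCl replicate 3 (0.0887, 0.0711, 0.0982 and 0.142). With a lane term the diet difference rests on lane 1, which holds 1 library per diet. The other lanes each hold libraries of only 1 diet, so that fit cannot show whether a call depends on the lane. Total-count scaling ended those of Slc27a2 (0.0620), Vnn1 (0.118) and Cyp4a12a (0.0545). Leaving out high-NaCl replicate 1 ended those of Slc27a2 (0.0639) and Cyp4a12a (0.0550), and leaving out low-NaCl replicate 1 ended that of Vnn1 (0.0560). The call of Cyp4a12a was also lost without low-NaCl replicate 3 (0.130) or high-NaCl replicate 2 (0.0627) and in limma-voom (0.0505).

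The remaining pathway lists held no call. Among 21 tested further genes of mitochondrial oxidation, Echdc3 (log2 fold change -0.41, adjusted p = 0.266) and Slc22a5, the plasma membrane carnitine transporter (0.32, adjusted p = 0.405), had the smallest p. Among 28 further peroxisomal enzymes and transporters, Pxmp2, a channel protein of the peroxisomal membrane, measured 26.1 ± 4.10 against 39.3 ± 4.72 CPM (-0.59 ± 0.16, adjusted p = 0.0761) and passed in DESeq2 (adjusted p = 0.0239). For Far1, a reductase of ether lipid synthesis, it was 1.03 (adjusted p = 0.102, and 0.0444 in DESeq2). Further peroxins (8 tested) were led by Pex26 (0.67, adjusted p = 0.392) and Pex7 (0.23, adjusted p = 0.683), and regulators (11 tested) by the AMP kinase subunit Prkaa2 (1.09, adjusted p = 0.260) and the PPAR partner Rxra (-0.16, adjusted p = 0.547). The ketone body genes Bdh2 (0.90, adjusted p = 0.297) and Oxct1 (0.25, adjusted p = 0.382) did not pass either. The median over the 96 genes was 0.07.

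Summed levels of principal, intercalated and thick limb markers lay apart between the diets, while those of vascular, immune, stromal and erythroid markers overlapped. Markers of principal cells summed to 5777, 4281 and 5419 CPM on the low-NaCl diet and 11498, 10664 and 9378 CPM on the high-NaCl diet, and 3 of 8 tested fell (Aqp2, Aqp3 and Scnn1g). Aqp2 is the largest part of that sum in every library, and Tfcp2l1, a transcription factor on the same list, went the other way without passing (1108 ± 80.6 against 704 ± 214 CPM, log2 fold change 0.65, adjusted p = 0.136). Markers of intercalated cells summed to 3173, 4143 and 6131 CPM against 2399, 2022 and 2229 CPM, and 6 of 11 tested rose. In bulk samples, fewer cells of a type and less RNA per cell cannot be told apart. The summed members showed no such separation: the acyl-CoA dehydrogenases gave 1523, 1453 and 1372 CPM against 1538, 1371 and 1454 CPM, and the peroxisomal enzymes gave 874, 819 and 843 CPM against 841, 822 and 840 CPM. The carnitine shuttle gave 1056, 1137 and 1029 CPM against 879, 1082 and 998 CPM. Proximal tubule markers summed to 88.6, 124 and 139 CPM against 77.4, 86.3 and 77.3 CPM, with 1 of 14 tested called (Slc27a2) and 4 of 20 at 0 counts, and overlapped between the diets once Slc27a2 was left out. Markers of the thick limb and distal convoluted tubule summed to 441, 545 and 453 CPM against 333, 292 and 350 CPM, with 1 of 5 tested called higher (Slc12a1). Vascular, immune and stromal markers summed to 3.51 to 12.4 CPM on the low-NaCl diet and 8.79 to 15.4 CPM on the high-NaCl diet, and erythroid markers stayed at or under 7.01 CPM. The part of these marker differences in any member's value was not tested.

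**Figure D5:**
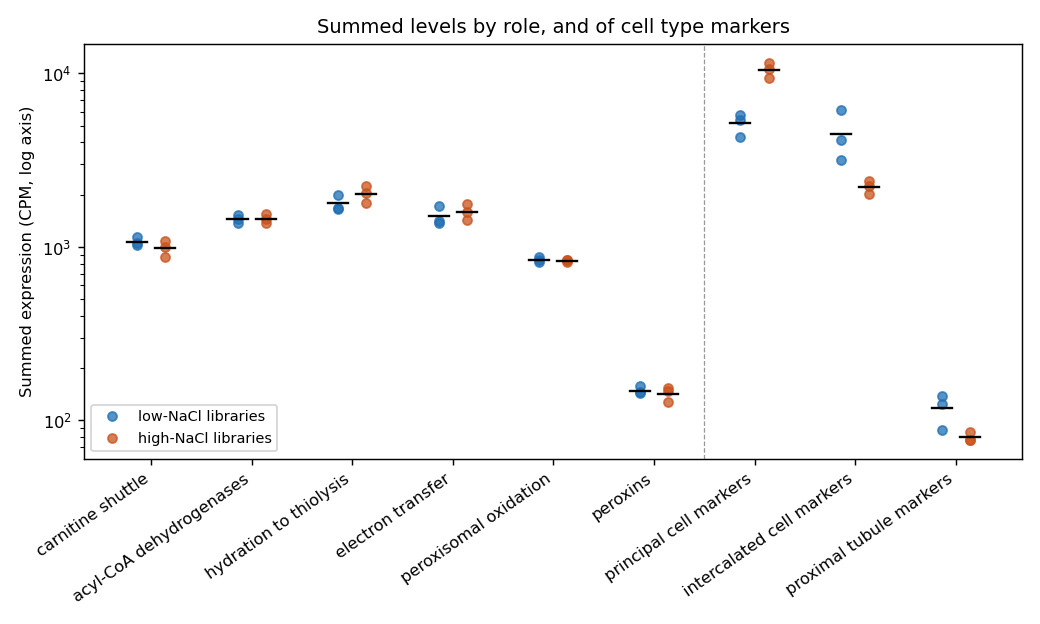
Points are CPM summed over the genes of a role, or over cell type markers (right of the dashed line), in each library on a log axis, with bars at diet means. In the 6 roles shown, the diets overlap, while principal cell markers are lower and intercalated cell markers higher in all 3 low-NaCl libraries.

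The start sites of the members were compared in RefSeq windows of 300 bases (build GRCm38.p6, 250 before and 50 after the start), which 31 of the 36 members had. The half-site AGGTCA, which nuclear receptors such as the PPARs bind in repeats, was searched on both strands. It was found in 4 of the 31 windows (12.9%), those of Cpt1a, Acadm, Acadvl and Echs1, against 16% of all 27025 windows. The element TCAAGGTCA, which contains that half-site and is read by estrogen-related receptors, was in 0 windows, against 0.407% of all. The GC box GGGCGG was in 22 windows (71%), against 35.9% of all, beside a median GC content of 60.7% against 52.7%. Those 22 include the windows of Hadha and Hadhb, which share 228 of their 300 bases and so are not separate stretches. The CCAAT box was in 8 of the 31 windows (25.8% against 37.9%). TATAAA was in 1, that of Pex14 (3.23% against 14.2%), and CACGTG in 0 (against 7.24%). These matches are descriptions of letters and not binding sites. The 250 bases before the start are shown for Cpt1a (chr19:3323051-3323300, plus strand) and Acadm (chr3:153944644-153944893, minus strand), the shuttle and dehydrogenase genes best known as targets of PPARs, with the half-site in capitals in its reverse-strand form.
Cpt1a: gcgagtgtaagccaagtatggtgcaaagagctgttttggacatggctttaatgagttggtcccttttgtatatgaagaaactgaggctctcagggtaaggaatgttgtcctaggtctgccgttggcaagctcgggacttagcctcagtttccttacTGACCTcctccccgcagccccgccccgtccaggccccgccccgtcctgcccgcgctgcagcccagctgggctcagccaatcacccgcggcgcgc
Acadm: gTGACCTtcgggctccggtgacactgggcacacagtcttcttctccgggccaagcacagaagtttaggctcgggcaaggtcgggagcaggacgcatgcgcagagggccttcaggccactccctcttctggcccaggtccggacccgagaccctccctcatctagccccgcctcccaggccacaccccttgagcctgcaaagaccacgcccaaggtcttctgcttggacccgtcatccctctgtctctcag
In Acadm the match lies at the far end of the stretch, and in Cpt1a it lies nearer the start. As given above, neither gene's level passed the test between the diets.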

How the data were processed

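Each library has 1 deposited table of raw read counts. Per the file headers, the authors counted with featureCounts 1.5.0-p3 on exons that UCSC annotates in mm10. No option for strand, overlap or reads that map to several places was set, per the file headers, so by that program's defaults a read overlapping more than 1 identifier was not counted and genes that overlap on opposite strands are not separable. FastQC, Subread and edgeR stand in the submitters' processing notes too. The aligner: not given in the sources used here. All 59121 identifiers are transcripts. They were matched to GENCODE M21 by identical introns (41510 identifiers, 72.2% of counts) or by at least 50% of exonic bases on the same strand (11061, 22.2%) and summed to 24927 genes. The 6550 unmatched identifiers (5.57%) entered library sizes only.

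Genes were tested with edgeR 4.0.16 (R 4.3.3, Python 3.11.15): filterByExpr by diet, TMM factors, robust glmQLFit and glmQLFTest without covariates, Benjamini-Hochberg adjustment over 10564 genes, threshold 0.05. SEs are absolute log2 fold changes over the square root of F, and the biological coefficient of variation was 21.6%. Log2 differences within lane 1 used a pseudocount of 0.01 CPM. Depth was 40101899 to 46861531 counts, and chi-square tests between replicates gave 34.5 to 221 per degree of freedom, so replicates differed beyond sampling noise. The members, the lists and the tests were chosen with earlier results of these data known. Library values are given for Ppara, Ppargc1a, Cpt1a, Acadm, Hadha, Ehhadh and any called member, and in each role for the 2 tested members with the smallest p (1 where under 3 were tested; Acsl1 and Fabp3 had equal p and are both given). Of the further pathway genes, those called and otherwise up to 2 per list were named. Alternatives were scaling by median ratio or by total count, a filter of at least 1 CPM in 3 libraries or none, DESeq2 1.42.0, limma-voom (limma 3.58.1), a block for the replicate number, a lane term, leaving out each library, the libraries over 25% mitochondrial or the mitochondrial genes, and each way of matching alone.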

Additional observations from a re-analysis of the deposited data

How the results depend on the processing

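No member was called under any alternative, and the members' median ran from -0.070 to 0.066, the latter with total-count scaling, which also moved the median of all genes to 0.087. At an unadjusted p under 0.05, edgeR gave 2 of 30 members with the replicate block (Fabp3 and Acaa2), against 25.3% of all tested genes. Without low-NaCl replicate 1 it gave the same 2 of 30, against 18.8%. Without high-NaCl replicate 2 it gave 2 of 30 (Acaa2 and Bdh1), against 24.2%. Leaving out high-NaCl replicate 1 gave 1 of 30 (Ehhadh), against 15.2%. The libraries over 25% mitochondrial were high-NaCl replicates 1 and 3, so leaving them out left replicate 2 as the only high-NaCl library. That fit gave log2 fold changes of 0.43 for Pex19 and -0.43 for Ehhadh.

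Deviations of low-NaCl replicates 1 and 2 correlated best with the high-NaCl replicate of the same number (0.36 and 0.42). Low-NaCl replicate 3 correlated best with high-NaCl replicate 2 (0.12, against -0.06 with replicate 3). These correlations do not settle whether replicate numbers pair the libraries. The replicate block called 465 genes higher and 447 lower, and 7 and 4 further pathway genes. Total-count scaling called 81 and 55 genes, and 0 and 1 further pathway genes. Without a filter 280 genes were lower. DESeq2 called 409 and 448 genes and 4 higher further pathway genes, limma-voom 1. With the lane term the diet difference rests on 1 library per diet, so its calls are not given. Leaving out the libraries over 25% mitochondrial left 31 and 92 genes, and 0 and 1 further pathway genes. Leaving out each library gave 34 (high-NaCl replicate 3) to 292 (low-NaCl replicate 1) higher genes and 36 (low-NaCl replicate 2) to 254 (high-NaCl replicate 2) lower genes, with 0 to 5 and 0 to 4 further pathway genes. The cause was not tested.

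Signs of uncalled genes turned under several alternatives. By scaling, tool, filter, genes kept or matching: Hadha -0.0025 and Etfa -0.0047 (median-ratio, DESeq2), Slc25a20 0.016, Acadm 0.036 and Pex14 0.056 (total-count), Etfa -0.00031 (no filter), Hadha -0.0026 and Etfa -0.0081 (CPM filter), Hadha -0.0035 and Etfa -0.0078 (mitochondrial genes left out) and Etfa -0.0014 (identical introns only). With the lane term, which rests on the lane 1 pair of libraries alone, Fabp3 was 0.11, Acadm 0.11, Hadha -0.0012, Echs1 0.033, Ehhadh 0.084 and Pex11a 0.57. With the mitochondrial-rich libraries out, high-NaCl replicate 2 alone stood for its diet, and the part of mitochondrial content in these signs was not tested. Cpt1a was then -0.088, Acadl -0.0093, Acads 0.36, Echs1 0.11, Decr1 -0.12, Etfa -0.20, Etfb 0.22, Etfdh -0.064, Acaa1a 0.061, Pex14 0.23, Bdh1 0.22, Slc22a5 -0.019 and Pex7 -0.01. Over leaving out each library, Cpt2 ran from -0.11 to 0.13, Crat -0.068 to 0.30, Acadm -0.093 to 0.041, Acads -0.43 to 0.055, Hadha -0.051 to 0.06, Decr1 -0.024 to 0.072, Etfa -0.082 to 0.11, Etfb -0.35 to 0.019, Pex11a -0.42 to 0.22, Pex14 -0.18 to 0.052 and Pex19 -0.073 to 0.17. Acsl1, Crat, Acox3, Pex11a and Bdh1 were all under 2 CPM, with 5.54% to 13.7% of their bases countable.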
